A study of Rattus norvegicus with 30 samples.

Results

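The genes described here are the nuclear genes for subunits of the mitochondrial oxidative phosphorylation complexes, followed in the lungs of 30 rats. They were chosen by name: a protein-coding row outside the mitochondrial chromosome belongs to the set if its symbol starts with Ndufa, Ndufb, Ndufc, Ndufs, Ndufv, Uqcr or Atp5, or with Cox4 to Cox8 followed by a letter, or is Sdha, Sdhb, Sdhc or Sdhd, and assembly factors starting with Ndufaf are left out. The name rule itself uses no measured value. This gave 80 of the 22914 rows of the count table, with 77 symbols, since Cox6b1, Atp5f1 and Ndufa13 have 2 rows each. Of these members, 76 had enough reads to be tested, out of 15934 rows tested in all, and the 4 others were Cox8c, Ndufv3-ps1 and the second rows of Atp5f1 and Ndufa13. The name rule also takes in Atp5s, Atp5sl and Cox7a2l, which are not structural subunits of the complex they are counted under here, and Ndufa4, which is now placed in complex IV, is counted under complex I with its paralog Ndufa4l2.

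The study asked how the lung transcriptome responds to severe acute pancreatitis (SAP) and to 2 treatments. Polyadenylated RNA was sequenced from whole lung tissue of male Sprague Dawley rats (8 weeks old, 180 to 220 g), with 3 separate rats in each of 10 groups. Lungs were collected 6 or 24 hours after the operation. In Sham the pancreas was only turned slightly, and in Con saline was infused into the biliopancreatic duct. SAP, DEX and Emo rats received 5.0% sodium taurocholate, a bile salt, by the same route. DEX rats were then given dexamethasone, a glucocorticoid, at 10 mg/kg into a vein, and Emo rats were given emodin, a plant anthraquinone, into the stomach. The labels state the emodin dose as 10 mg/kg in the sample description and as 40 mg/kg in the protocol. Both drugs were scheduled at 2 and 12 hours, so that rats examined at 6 hours can have had only the first dose. All groups not given a drug received its vehicle, saline or carboxymethylcellulose.

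Oxidative phosphorylation passes electrons from NADH through complex I, or from succinate through complex II, to complex III and on to complex IV, which reduces oxygen. Complexes I, III and IV pump protons across the inner mitochondrial membrane, and complex V, the ATP synthase, uses the returning flow to make ATP. Most subunits are encoded in the nucleus and imported, whereas a small set of core subunits of complexes I, III, IV and V is made inside the mitochondrion from its own DNA, and all subunits of complex II are nuclear. Several subunits have a second, tissue-restricted isoform, among them Cox4i2, an isoform known from lung and from low oxygen, and Ndufa4l2, a hypoxia-inducible paralog of Ndufa4 that marks pericytes, the cells around small vessels.

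Levels are given in FPKM, read fragments scaled by gene length and library depth, which allow genes to be compared per length. Libraries held 16813949 to 34692306 reads on genes, the lowest being replicate 3 of SAP-6h. Together the members took 0.858% (DEX-24h and SAP-24h) to 1.06% (Sham-6h) of the reads on genes, as group means. Markers of alveolar type 2 cells were abundant in every group (8 of 8 genes above 0, summed level 25200 to 48200 FPKM per library). Most members varied little between groups. The highest group mean was a median of 1.44 times the lowest, and it was under 2 times the lowest in 69 of the 76 members tested.

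Complex IV and complex V genes had the highest levels. The median of the mean FPKM per member was 74.5 for complex I (32 tested members), 68.0 for complex II (4), 91.3 for complex III (7), 242 for complex IV (16) and 169 for complex V (17). The highest member of each complex was Ndufa7 in complex I (177.6 FPKM over all libraries), the iron-sulfur subunit Sdhb in complex II (82.39 FPKM), the hinge protein Uqcrh in complex III (201.8 FPKM), Cox4i1 in complex IV (576 FPKM) and the epsilon subunit Atp5e in complex V (673.2 FPKM). The 4 subunits of complex II lay close together, from 59.62 FPKM in Sdhd, a membrane anchor, to 82.39 FPKM in Sdhb. In contrast, complex I ranged down to 14.27 FPKM in Ndufs1, its largest core subunit, and complex IV to 11.66 FPKM in Cox6b2, a testis-type isoform.

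**Figure D1:**
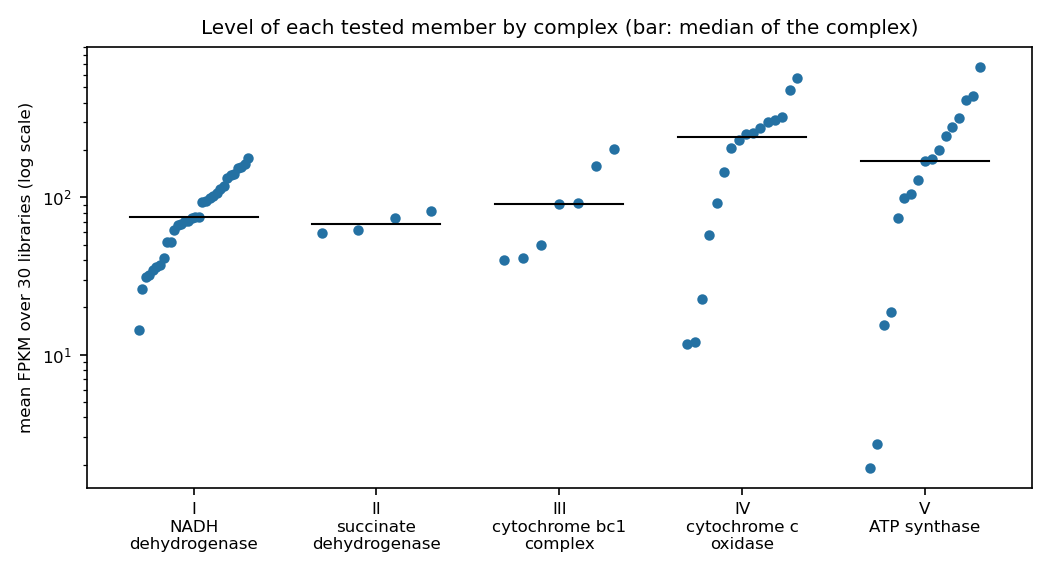
Mean FPKM over 30 libraries (log axis) of each of the 76 tested members, by complex, with the bar at the median of the complex. Complex IV (median 242 FPKM) and complex V (169 FPKM) lie above complexes I to III (68.0 to 91.3 FPKM), and the highest point is Atp5e at 673.2 FPKM.

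Promoter sequence is shown for 4 members that were lower at 24 than at 6 hours in both drug groups. RefSeq promoter windows of the rat assembly GRCr8 were matched to 67 of the 77 symbols by current symbol or synonym, and the 250 bases before the start site were searched on both strands. The letters GCGCANGCG, the core of sites for NRF1, a transcription factor known for respiratory chain genes, were found in 12 of 67 member promoters (17.9%) and in 1518 of all 27457 promoters of that length (5.53%). The letters CCGGAAG, the core of sites for ETS factors such as GABP, were found in 18 (26.9%) against 2126 (7.74%), and ACGTG, the core of hypoxia-inducible factor sites, in 17 (25.4%) against 4653 (16.9%). The member promoters were richer in G and C (median 56.8%) than all promoters (52%), and these shares are not adjusted for it. Windows shown are chr8:118467973-118468222 (plus strand) for Uqcrc1, a core protein of complex III, chr7:135678219-135678468 (minus strand) for Atp5g2, a gene for subunit c of the ATP synthase, chr19:65630133-65630382 (plus strand) for Cox4i1, and chr7:65241919-65242168 (plus strand) for Ndufa4l2, the tested member with the largest called changes at 24 hours. Each reads 5′ to 3′ towards its gene and ends at the base before the start, and capitals mark matches to any of these letters, which overlap on both strands in Atp5g2.
Uqcrc1: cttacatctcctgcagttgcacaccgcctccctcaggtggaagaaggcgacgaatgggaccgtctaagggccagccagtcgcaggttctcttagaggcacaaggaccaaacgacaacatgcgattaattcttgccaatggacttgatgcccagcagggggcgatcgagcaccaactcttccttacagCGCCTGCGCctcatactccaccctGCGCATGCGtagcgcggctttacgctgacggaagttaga
Atp5g2: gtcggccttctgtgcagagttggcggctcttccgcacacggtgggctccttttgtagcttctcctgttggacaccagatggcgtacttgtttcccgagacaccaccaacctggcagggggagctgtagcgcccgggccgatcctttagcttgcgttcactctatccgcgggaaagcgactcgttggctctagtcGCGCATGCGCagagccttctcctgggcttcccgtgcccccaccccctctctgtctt
Cox4i1: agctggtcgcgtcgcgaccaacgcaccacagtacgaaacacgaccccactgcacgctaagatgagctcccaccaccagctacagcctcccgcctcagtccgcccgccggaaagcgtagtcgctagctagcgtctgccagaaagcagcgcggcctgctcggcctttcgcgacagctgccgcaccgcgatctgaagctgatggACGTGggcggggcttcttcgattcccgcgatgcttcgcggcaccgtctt
Ndufa4l2: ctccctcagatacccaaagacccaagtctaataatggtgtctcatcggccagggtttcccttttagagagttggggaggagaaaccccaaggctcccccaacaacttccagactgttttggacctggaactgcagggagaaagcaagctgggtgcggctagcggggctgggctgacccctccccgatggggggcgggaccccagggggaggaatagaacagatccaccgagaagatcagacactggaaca
The Uqcrc1 window held 2 NRF1 matches, at 63 to 55 and at 39 to 31 bases before the start, and the Cox4i1 window held a single ACGTG, at 49 to 45 bases before it. The Ndufa4l2 window held none of these letters. Among the 23 members lower at 24 than at 6 hours in both drug groups (below), the NRF1 letters were in 3 of 18 matched promoters (16.7%), compared with 9 of 49 (18.4%) in the other members. For the ETS letters the counts were 2 of 18 (11.1%) and 16 of 49 (32.7%), and for the HIF letters 4 of 18 (22.2%) and 13 of 49 (26.5%). These are descriptions of the letters, and binding was not measured.

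In the 6 comparisons made at 6 hours no member passed an adjusted p under 0.05 (edgeR's quasi-likelihood test, Benjamini-Hochberg adjustment over all 15934 genes), the threshold for a call throughout. In SAP-6h vs Sham-6h edgeR called 0.27% of all genes. At an unadjusted p under 0.05 there were 9 of 76 members, where 13.1% of all genes were, and DESeq2 called 1 member and 2.15% of all genes. In SAP-6h vs Con-6h (0.207% of all genes called), 1 member was at an unadjusted p under 0.05 and 10.4% of all genes were. The numbers were 3 members and 12.1% of all genes in DEX-6h vs SAP-6h (0.979% called), and 7 members and 17.3% in Emo-6h vs DEX-6h (2.88% called). They were 14 members and 13.5% of all genes in Emo-6h vs SAP-6h (0.0314% called), and 19 members and 8.61% in Sham-6h vs Con-6h (0% called). DESeq2 called no member in these 5 comparisons, where it called 1.07%, 2.57%, 5.59%, 0.433% and 0.0628% of all genes in the order given. In SAP-6h vs Sham-6h, 68 of the 76 members had a log2 fold change below 0, compared with 52.7% of all genes, and their median was -0.17 against -0.018. All 7 core subunits of complex I, the conserved subunits that carry its flavin and iron-sulfur clusters, lay between -0.289 and -0.0231 there. The median of the members lay 0.276 above their mean on the log2 scale in replicate 3 of Sham-6h, and 0.0943 and 0.0584 above it in replicates 1 and 2. Marker sums of red blood cells (8140 to 12600 against 972 to 4940 FPKM) and endothelium (1130 to 1550 against 1060 to 1110 FPKM) were higher in SAP-6h without overlap. Those of smooth muscle and pericytes were lower (485 to 579 against 639 to 834 FPKM), and the part of these cells was not tested.

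At 24 hours, a single member was down-regulated in SAP-24h vs Sham-24h, and it was Ndufa4l2 (ENSRNOG00000031851, chromosome 7), where 12.4% of all genes were called. Its level was 34.3, 37.3 and 24.1 FPKM in the 3 Sham-24h rats and 12.3, 8.65 and 9.55 FPKM in the 3 SAP-24h rats. The groups did not overlap, and the log2 fold change was -1.51 (adjusted p = 0.0136, standard error 0.38). The call was lost without replicate 2 of SAP-24h (log2 fold change -1.38, adjusted p = 0.0502) or replicate 2 of Sham-24h (-1.37, adjusted p = 0.0555). It was also lost in a model of the compared groups alone (-1.5, adjusted p = 0.0643). In these bulk samples, fewer cells of a type and less RNA per cell cannot be told apart. No other member was called, 6 members in all had an unadjusted p under 0.05 (28.4% of all genes had), and the median log2 fold change was -0.012 against -0.032 for all genes, with a sign that turned under some of the other settings.

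In DEX-24h the level of Ndufa4l2 was lower still. DEX-24h rats had 3.28, 4.54 and 3.10 FPKM, below each SAP-24h rat, with a log2 fold change of -1.58 (adjusted p = 0.0172, standard error 0.40). This call was lost without replicate 1 (adjusted p = 0.0702) or 3 (0.0738) of DEX-24h or replicate 1 of SAP-24h (0.0733), with log2 fold changes from -1.49 to -1.36. In DEX-24h vs SAP-24h the called members were Ndufa4l2 and Ndufa8, both lower, where 7.71% of all genes were called. Ndufa8 (ENSRNOG00000005668, chromosome 3), an accessory subunit of complex I, had 58.9, 59.8 and 62.4 FPKM in DEX-24h against 67.1, 82.7 and 91.0 FPKM in SAP-24h. All DEX-24h rats were below all SAP-24h rats, with a log2 fold change of -0.49 (adjusted p = 0.0128, standard error 0.12). Without replicate 1 of DEX-24h or replicate 3 of SAP-24h its adjusted p was 0.0516 and 0.0555. In a model of the compared groups alone it was 0.0951 (log2 fold change -0.489).

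In Emo-24h rats Ndufa4l2 stood at 29.3, 31.7 and 17.3 FPKM, above every SAP-24h and every DEX-24h rat and overlapping with Sham-24h. It was the one member called in Emo-24h vs DEX-24h, with a log2 fold change of 2.76 (adjusted p = 0.000266, standard error 0.41), where 8.89% of all genes were called. This call held under all 10 other settings that keep the threshold on the adjusted p and with each of the 6 rats left out in turn (largest adjusted p 0.00527). Against SAP-24h its log2 fold change was 1.19 (standard error 0.38) with an adjusted p of 0.0523, which missed the threshold. In Emo-24h vs SAP-24h, 2 members were called, both lower in Emo-24h, among them Cox5a, where 8.59% of all genes were called.

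Cox5a (ENSRNOG00000018816, chromosome 8), a subunit of complex IV, had 188, 209 and 196 FPKM in Emo-24h and 232, 226 and 240 FPKM in SAP-24h. The groups did not overlap, but the change was small, with a log2 fold change of -0.39 (adjusted p = 0.021, standard error 0.10). The call was lost when library size alone was used for scaling (-0.18, adjusted p = 0.192), a setting that moves the median of all genes in this comparison by 0.21. It was also lost with limma on log2(FPKM + 1) and log2(FPKM + 0.1) (adjusted p = 0.0906 and 0.0941) and in a model of the compared groups alone (0.145). Without replicate 1 or 2 of Emo-24h or replicate 1 of SAP-24h the adjusted p was 0.0943, 0.0501 and 0.0672.

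The order of Ndufa4l2 over the 10 groups was led by Sham-6h (54.9 ± 20.8 FPKM, SD, n = 3) and Emo-6h (54.1 ± 22.7 FPKM), followed by Con-6h, DEX-6h, Con-24h, SAP-6h, Sham-24h (31.9 ± 6.9 FPKM) and Emo-24h (26.1 ± 7.75 FPKM). Each of these 8 groups overlapped with its neighbour in the order. SAP-24h (10.2 ± 1.88 FPKM) and DEX-24h (3.64 ± 0.785 FPKM) stood apart from the groups above them, and the highest group mean was 15.1 times the lowest. The paralog Ndufa4, the common subunit, ranged 1.51 times between group means, and all its neighbouring groups overlapped. SAP-24h and DEX-24h were thus low in Ndufa4l2 while Ndufa4 was at 97.9 ± 9.52 FPKM in SAP-24h and 116 ± 11.9 FPKM in DEX-24h.

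**Figure D2:**
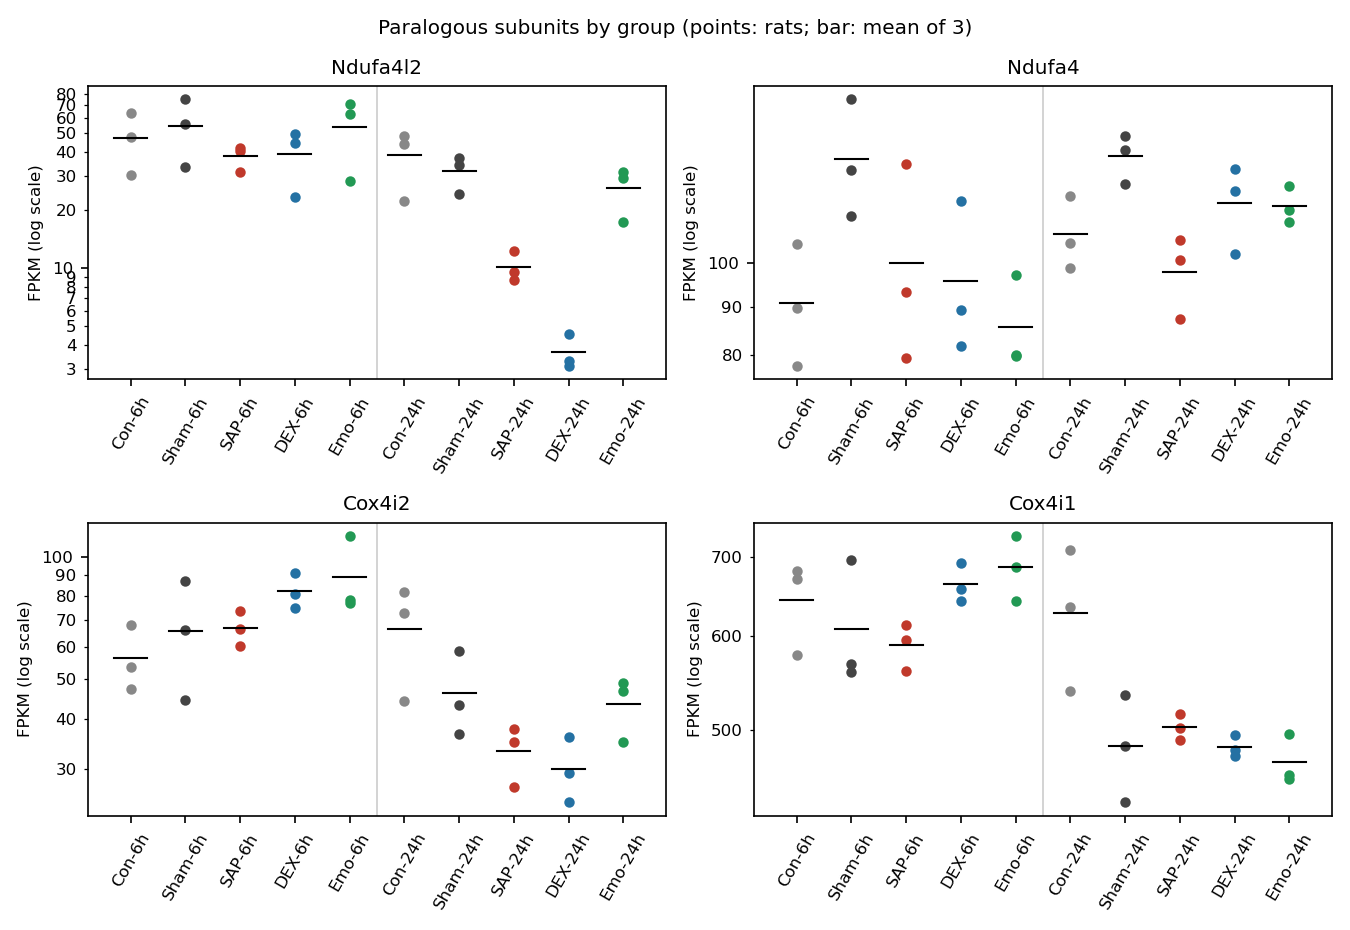
FPKM (log axes) of Ndufa4l2, Ndufa4, Cox4i2 and Cox4i1 in each rat by group, with the bar at the mean of 3 rats and a line between the 6-hour and the 24-hour groups. The SAP-24h (8.65 to 12.3 FPKM) and DEX-24h rats (3.10 to 4.54 FPKM) are the lowest in Ndufa4l2, and in Cox4i2 all SAP-24h and DEX-24h rats lie below all SAP-6h, DEX-6h and Emo-6h rats.

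Markers of smooth muscle and pericytes were examined beside Ndufa4l2 as cells that may carry it. All 8 genes of that list were above 0 in every group. Their summed level per library was 515 to 744 FPKM in Sham-24h, 279 to 438 FPKM in SAP-24h, 475 to 615 FPKM in DEX-24h and 493 to 713 FPKM in Emo-24h. None of the 8 was called in SAP-24h vs Sham-24h or DEX-24h vs SAP-24h. The median log2 fold change of the list was -0.49 in the first comparison and 0.31 in the second. In Emo-24h vs DEX-24h, 1 of 8 markers was higher (median 0.30). The mean of 6 of the 8 was higher in Emo-24h than in DEX-24h, and that of Tagln (296 against 308 FPKM) and Des (49.5 against 52.6 FPKM) was lower. In DEX-24h all 8 means were above those of SAP-24h, by least in Pdgfrb (9.28 against 9.08 FPKM). Other lists whose sums did not overlap were T cell, ciliated (both lower in SAP-24h) and club markers (higher) for SAP-24h and Sham-24h. For DEX-24h and SAP-24h they were neutrophil, macrophage and monocyte, B cell and club markers (lower in DEX-24h) and endothelial markers (higher). For Emo-24h and DEX-24h they were neutrophil, T and B cell (higher in Emo-24h) and red blood cell markers (lower), and for Emo-24h and SAP-24h B cell (higher in Emo-24h) and macrophage and monocyte markers (lower). The part of these cells in the values of Ndufa4l2, Ndufa8 and Cox5a was not tested.

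Against the saline-infused controls more members differed at 24 hours, all of them downward. In SAP-24h vs Con-24h, 14 of 76 members (18.4%) were lower, where 22.1% of all genes were called in either direction and 10.0% lower. In Sham-24h vs Con-24h, 11 of 76 (14.5%) were lower, where 9.85% of all genes were called and 4.21% lower. By complex, 10 of 32 members in complex I, 0 of 4 in complex II, 1 of 7 in complex III, 1 of 16 in complex IV and 2 of 17 in complex V were lower in SAP-24h, and 8, 0, 1, 1 and 1 in Sham-24h, a division that was not tested and rests on the single rats named below. Ndufs7, Ndufs8 and Ndufv1, core subunits of complex I, were lower in both comparisons, which share the Con-24h rats. For Ndufv1, which carries the flavin, the levels were 79.9, 79.3 and 69.8 FPKM in Con-24h, 65.2, 52.4 and 50.7 FPKM in Sham-24h and 50.3, 59.5 and 57.3 FPKM in SAP-24h. Every Con-24h rat was above every Sham-24h and SAP-24h rat, with log2 fold changes of -0.45 (adjusted p = 0.0088, standard error 0.096) for Sham-24h and -0.33 (adjusted p = 0.0156, standard error 0.095) for SAP-24h. The SAP-24h call of Ndufv1 was lost without replicate 1 (adjusted p = 0.0692) or 2 (0.0831) of Con-24h or replicate 1 of SAP-24h (0.0623), and its Sham-24h call without replicate 2 of Con-24h (0.0524). Ndufs8 in Sham-24h vs Con-24h was lost under 7 of the other settings and without 4 of the 6 rats (adjusted p up to 0.238 without replicate 1 of Con-24h). None of the 6 calls of Ndufs7, Ndufs8 and Ndufv1 held in a model of the compared groups alone (adjusted p = 0.0907 to 0.164). Ndufa4l2 had the smallest adjusted p of the members in SAP-24h vs Con-24h (log2 fold change -1.79, adjusted p = 0.00272). Its call held in all 16 fits with another setting or with a rat left out (largest adjusted p 0.0464).

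The summed levels of 7 cell type lists did not overlap between SAP-24h and Con-24h. Higher in SAP-24h were neutrophil (4640 to 16500 against 127 to 1010 FPKM) and macrophage and monocyte markers (24200 to 31600 against 18200 to 20100 FPKM). Lower were markers of smooth muscle and pericytes (279 to 438 against 526 to 928 FPKM), T cells (11.7 to 15.8 against 24 to 106 FPKM), alveolar type 1 cells (1370 to 2670 against 2750 to 3700 FPKM), ciliated cells (337 to 610 against 847 to 933 FPKM) and endothelium (868 to 919 against 1060 to 1280 FPKM). Of single markers, 8 of 8 for neutrophils were called higher, and 5 of 8 for smooth muscle and pericytes and 6 of 6 for T cells lower. Between Sham-24h and Con-24h, 4 lists did not overlap, all lower in Sham-24h, namely alveolar type 2 (25200 to 35500 against 38600 to 43600 FPKM), club (20000 to 36200 against 36300 to 43200 FPKM), ciliated (662 to 786 against 847 to 933 FPKM) and endothelial markers (785 to 1020 against 1060 to 1280 FPKM), and no gene of these 4 was called. The part of these cells in the members' calls was not tested.

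Both numbers of members rested on single rats. Replicate 1 of Con-24h was the library with the highest median of the members among all 30 (0.304 above their mean on the log2 scale), whereas replicate 3 of Con-24h was at -0.0713. The 14 members became 2 without replicate 1 of Con-24h, 4 without replicate 2 and 22 without replicate 3, and 5, 9 and 9 without replicates 1, 2 and 3 of SAP-24h. The 11 members became 1, 0 and 23 without replicates 1, 2 and 3 of Con-24h, and 13, 3 and 1 without replicates 1, 2 and 3 of Sham-24h. A model of the compared groups alone called 1 and 0 members. The study lists a lower share of uniquely mapped reads in the libraries of rats given taurocholate than in Sham and Con, so that for SAP against these groups the infusion and the mapping cannot be told apart. In the same list the share was higher in DEX-24h than in DEX-6h and SAP-24h, and higher still in Emo-24h than in Emo-6h, SAP-24h and DEX-24h, without overlap. It therefore moves with every comparison of DEX-24h and Emo-24h given here, and its part in them was not tested.

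From 6 to 24 hours, a large part of the members was down-regulated in both drug-treated groups. In DEX-24h vs DEX-6h, 25 of 76 members (32.9%) were lower and 3 were higher, where 25.9% of all genes were called, 12.3% lower and 13.6% higher. In Emo-24h vs Emo-6h, 29 of 76 (38.2%) were lower and 6 were higher, where 34.1% of all genes were called, 16.8% lower and 17.3% higher. The median log2 fold change of the members was -0.18 and -0.21, against 0.00085 and 0.035 for all genes, so that the shift was small for most of them. Of the called, 2 and 3 of the 76 members reached a 2-fold change. Among all genes 1137 and 1500 of the 15934 did, a larger share both times. The shares of all genes are not matched to the members in expression level. The lower members of DEX and Emo, in comparisons that share no rat, had 23 in common, which is 92% of the 25 and 79.3% of the 29. Over all genes, 1287 were lower in both, which is 65.7% of those lower in DEX and 48.1% of those lower in Emo, and no test compared these shares.

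**Figure D3:**
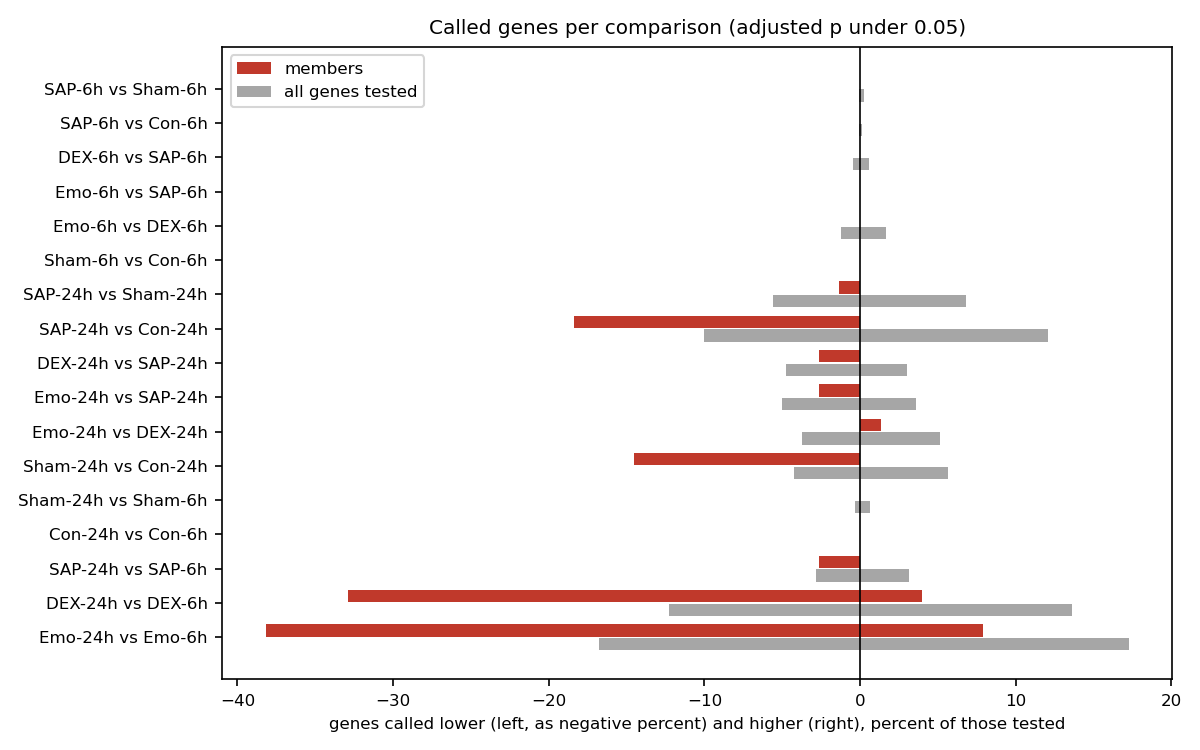
Percent of members (red) and of all genes tested (grey) called at an adjusted p under 0.05 in each comparison, lower to the left and higher to the right of 0. For the time comparisons of DEX and Emo, 32.9% and 38.2% of the members were lower, where 12.3% and 16.8% of all genes were.

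In the rats with untreated pancreatitis, 2 members were lower in SAP-24h vs SAP-6h, where 6.01% of all genes were called. No member was called in Sham-24h vs Sham-6h (0.992% of all genes called) and Con-24h vs Con-6h (0.0126%). At an unadjusted p under 0.05 there were 24 members in Sham and 12 in Con, where 20.4% and 10.5% of all genes were. DESeq2 called 10 members in Sham and 0 in Con, and 6.04% and 0.998% of all genes. The median log2 fold change of the members was -0.012 in SAP, -0.18 in Sham and 0.083 in Con. For Sham this median was as low as in DEX, with 54 of the 76 members below 0, although no member passed the threshold.

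By complex, the lower members from 6 to 24 hours were 11 of 32 in complex I, 0 of 4 in complex II, 1 of 7 in complex III, 6 of 16 in complex IV and 7 of 17 in complex V for DEX. For Emo they were 15, 0, 1, 7 and 6, and this division was not tested. The core subunits Ndufs7, Ndufs8 and Ndufv1 of complex I were lower in both drug groups, and Ndufs1, the largest, was called in neither. In DEX the call of Ndufs7 was lost without replicate 1 (adjusted p = 0.112) or 3 (0.0703) of DEX-24h or replicate 1 (0.0537) or 2 (0.061) of DEX-6h, and that of Ndufs8 without replicate 1 of DEX-24h (0.121) or replicate 2 of DEX-6h (0.0619). None of the 4 complex II genes was called in any time comparison. With 12.3% (DEX) and 16.8% (Emo) of all genes lower, 4 genes are too few to set complex II apart. The log2 fold changes of Sdha, Sdhb, Sdhc and Sdhd lay between -0.16 (Sdhc) and 0.06 (Sdhd) in DEX and between -0.21 (Sdhc) and 0.19 (Sdha) in Emo, each with a standard error of 0.095 to 0.11.

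Uqcrc1 (ENSRNOG00000032134, chromosome 8), a core protein of complex III whose promoter with 2 NRF1 matches is shown above, came after Ndufa4l2 and Cox4i2 in the size of its fall among the called members of both drug groups. It had 106, 117 and 129 FPKM in DEX-6h and 64.5, 67.7 and 74.5 FPKM in DEX-24h. In Emo it went from 128, 116 and 124 FPKM at 6 hours to 74.98, 65.7 and 65.1 FPKM at 24 hours. Neither pair overlapped, with log2 fold changes of -0.75 (adjusted p = 0.000157, standard error 0.12) and -0.88 (adjusted p = 2.9e-05, standard error 0.12). In SAP the levels were 95.2, 82.9 and 92.8 FPKM at 6 hours and 70.6, 72.4 and 68.1 FPKM at 24 hours, and although these groups did not overlap either, the adjusted p was 0.172 (log2 fold change -0.26). The Uqcrc2 gene for the other core protein went the opposite way in Emo, with a log2 fold change of 0.50 (adjusted p = 0.00266, standard error 0.12).

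The lung isoform Cox4i2 (ENSRNOG00000007827, chromosome 3) fell in all 3 groups with pancreatitis. Its levels were 81.2, 91.4 and 74.7 FPKM in DEX-6h and 24.9, 36.1 and 29.4 FPKM in DEX-24h (-1.44, adjusted p = 0.000637, standard error 0.26). Emo rats had 113, 78.4 and 77.2 FPKM at 6 hours and 46.6, 48.9 and 35.1 FPKM at 24 hours (-1.09, adjusted p = 0.00273, standard error 0.26). SAP rats had 66.6, 60.2 and 73.6 FPKM at 6 hours and 37.6, 27.2 and 34.98 FPKM at 24 hours (-0.90, adjusted p = 0.0404, standard error 0.26). The 6-hour and 24-hour rats were apart in each case. The SAP call did not hold without any 1 of its 6 rats (adjusted p up to 0.119, log2 fold change -1.05 to -0.75). It was also lost with no filter (0.0512), the replicate block (0.0534) and the compared groups alone (0.0676). The DEX and Emo calls held without each of their rats. The common isoform Cox4i1 fell less, by 0.45 on the log2 scale in DEX (adjusted p = 0.00629, standard error 0.11) and by 0.60 in Emo (adjusted p = 0.00045, standard error 0.11). Atp5g2, whose promoter is shown above, fell by 0.643 in DEX (adjusted p = 0.00499) and by 0.64 in Emo (adjusted p = 0.00336), each with a standard error of 0.16.

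Ndufa4l2 fell in the same 3 groups, with log2 fold changes of -1.80 in SAP (adjusted p = 0.00982, standard error 0.39), -3.41 in DEX (adjusted p = 1.7e-05, standard error 0.41) and -1.10 in Emo (adjusted p = 0.0259, standard error 0.37). SAP rats went from 40.6, 31.4 and 42.1 FPKM to the 8.65 to 12.3 FPKM given above, and DEX rats from 23.4, 49.5 and 44.8 FPKM to 3.10 to 4.54 FPKM. Emo rats had 71.02, 63.0 and 28.4 FPKM at 6 hours, and the lowest of them was below 2 of the 3 Emo-24h rats. The Emo call was lost without replicate 3 of Emo-24h (adjusted p = 0.111), replicate 1 of Emo-6h (0.132) or replicate 2 of Emo-6h (0.0628). It was also lost in the model of the compared groups alone (-1.12, adjusted p = 0.052). Of the 8 smooth muscle and pericyte markers, 0 were called in SAP-24h vs SAP-6h, 2 were lower in DEX and 3 were lower and 1 higher in Emo, and whether they bear on both isoforms was not tested. In Sham rats, without pancreatitis, neither isoform was called over the same interval, with Ndufa4l2 at 54.9 ± 20.8 (SD, n = 3) and 31.9 ± 6.9 FPKM (-0.77, adjusted p = 0.244, standard error 0.37) and Cox4i2 at 65.8 ± 21.3 and 46.2 ± 11.2 FPKM (-0.492, adjusted p = 0.286, standard error 0.26). The change with time in SAP was not shown to differ from that in Sham by the interaction term (Ndufa4l2 -1.03, adjusted p = 0.433; Cox4i2 -0.407, adjusted p = 0.704), and that of DEX or Emo against Sham was not tested.

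**Figure D4:**
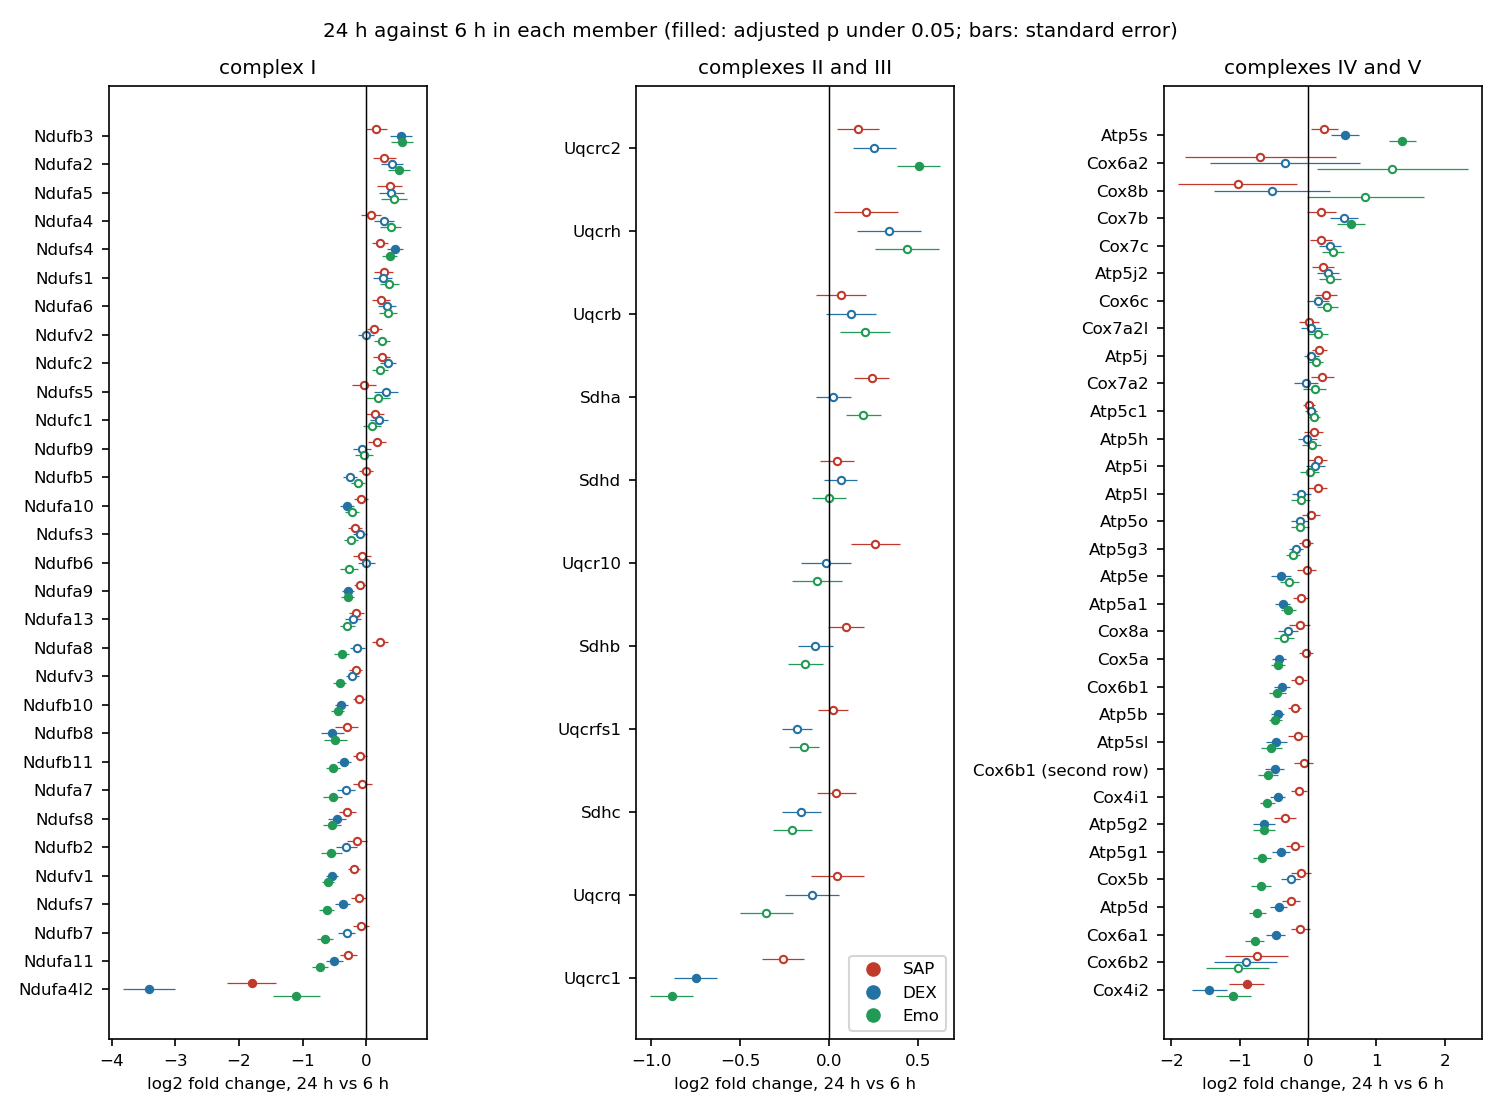
Log2 fold change of 24 against 6 hours in SAP, DEX and Emo for members by complex (Atp5f1 and a gene not reported here left out), with standard errors and filled points at an adjusted p under 0.05. Ndufa4l2 and Cox4i2 are at the bottom of their panels with all 3 groups filled, and the complex II genes have no filled point.

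A smaller number of members rose. Atp5s, Ndufb3 and Ndufs4 were higher at 24 hours in both drug groups (100% of the 3 in DEX and 50% of the 6 in Emo, where over all genes 70.3% and 55.4% of the higher were shared), and Uqcrc2, Cox7b and Ndufa2 were called in Emo alone. Atp5s (ENSRNOG00000004893, chromosome 6), named Dmac2l in RefSeq and near the lower end of expression here, had 0.92, 1.42 and 0.69 FPKM in Emo-6h and 2.96, 2.69 and 2.48 FPKM in Emo-24h. These groups were apart, with a log2 fold change of 1.38 (adjusted p = 5.45e-05, standard error 0.20). In DEX it had 1.50, 1.49 and 1.38 FPKM at 6 hours and 2.16, 2.21 and 1.92 FPKM at 24 hours (0.54, adjusted p = 0.0461, standard error 0.20). This DEX call was lost without any 1 of the 6 rats (adjusted p up to 0.139). It was also lost with RLE or upper quartile scaling, no filter, limma or the compared groups alone (adjusted p = 0.0512 to 0.0807). With limma on log2(FPKM + 1) the log2 fold change was 0.333.

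Ndufb3, an accessory subunit in the membrane arm of complex I, had 25.3, 29.8 and 28.6 FPKM in Emo-6h and 39.0, 42.1 and 45.4 FPKM in Emo-24h (0.56, adjusted p = 0.0158, standard error 0.17). In DEX it rose from 28.0, 29.4 and 23.2 FPKM to 40.0, 45.6 and 31.5 FPKM (0.55, adjusted p = 0.0216, standard error 0.17). The Emo call was lost without replicate 3 of Emo-24h (adjusted p = 0.0845) or replicate 1 of Emo-6h (0.0698), and the DEX call without replicate 1 (0.055) or 2 (0.123) of DEX-24h or replicate 3 of DEX-6h (0.109). The DEX call was also lost in the model of the compared groups alone (adjusted p = 0.064). Ndufs4, an accessory subunit of the matrix arm, rose in DEX from 23.4, 23.3 and 20.5 FPKM to 28.3, 32.2 and 30.5 FPKM (0.45, adjusted p = 0.00968, standard error 0.12), which was lost without replicate 3 of DEX-6h (adjusted p = 0.0582). In Emo it rose from 19.1, 22.4 and 23.2 FPKM to 27.7, 28.3 and 29.9 FPKM (0.37, adjusted p = 0.0234, standard error 0.12). This was lost with no filter (0.0512) and without replicate 2 (0.054) or 3 (0.124) of Emo-24h or replicate 1 (0.12) or 2 (0.0565) of Emo-6h. Cox7b, a small subunit of complex IV, rose in Emo from 56.2, 68.2 and 77.4 FPKM to 108, 106 and 107 FPKM (0.63, adjusted p = 0.0253, standard error 0.21). Its call was lost without replicate 2 (0.0568) or 3 (0.0729) of Emo-24h or replicate 1 (0.116) or 2 (0.0656) of Emo-6h.

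Emo-6h had the highest mean of the 10 groups for 21 of the 76 members, such as Uqcrc1, Cox4i1, Cox6a1 and Ndufv1, and the lowest mean for 17, such as Uqcrh, Cox7c, Ndufa4 and Uqcrc2, of which Uqcrc2 was called higher at 24 hours and the other 3 were not called. DEX-24h had the lowest mean for 25 members and the highest for none of the 76. Sham-6h had the highest mean for 21 members and the lowest for none. These ranks rest on FPKM means, without the scaling used in the tests. They were not counted over all genes, so they are not shown to be particular to the members.

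How many members changed in each direction depended on a single rat in DEX and on the scaling in Emo. Without replicate 1 of DEX-24h, 11 members were called in place of 28, and without each of the 5 others 20 to 23. Under scaling by library size alone, which moves the median of all genes in Emo-24h vs Emo-6h by 0.15, the split was 18 higher and 23 lower in place of 6 and 29, and it was 12 and 26 with upper quartile scaling and 10 and 26 with limma on log2 FPKM. The calls over all genes moved too, from 2754 higher and 2674 lower. They were 3782 and 1749 with library size and 3214 and 2247 with upper quartile scaling. With library size the 18 of 76 higher members are thus near the share of all genes. The 23 of 76 lower members stand there against 1749 of 15934 genes. Members are mostly short genes (median at percentile 8.16 of relative length, 59 of 76 below percentile 25 of all genes tested). Among genes below that percentile, 28.8% of the members were lower with time in DEX and 35.6% in Emo. Of all these genes, 10.8% and 15% were. With the gene length offset, 35 members were called in DEX and 44 in Emo, among them all 28 and all 35 called without it. The members' median log2 fold change was then -0.18 and -0.22. Over all genes, 1943 were called higher and 2245 lower in DEX, and 2458 and 3117 in Emo. What gene length contributes to the calls beyond this offset was not tested.

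Markers of other cell types moved in the same comparisons. The summed level of endothelial markers was lower at 24 than at 6 hours without overlap in DEX (949 to 1080 against 1330 to 1490 FPKM), in Emo (773 to 954 against 1110 to 1620 FPKM), in SAP (868 to 919 against 1130 to 1550 FPKM) and in Sham (785 to 1020 against 1060 to 1110 FPKM). Of the 5 endothelial markers tested, 2 rose and 2 fell in DEX, 2 rose and 1 fell in Emo and 1 fell in SAP. Alveolar type 1 markers summed to 1740 to 2580 FPKM in Emo-24h against 2730 to 3090 FPKM in Emo-6h, with 1 of 6 lower, and overlapped in DEX. In DEX-24h vs DEX-6h all 6 T cell markers and all 5 B cell markers were lower (medians -2.1 and -2.5), with summed levels of 5.82 to 12.7 FPKM against 28.7 to 42.4 FPKM for T cells and 5.44 to 12.2 FPKM against 33.4 to 61.0 FPKM for B cells. In Emo-24h vs Emo-6h none of either list was called, and 5 of 6 red blood cell markers were lower (median -3.4), at 377 to 1630 FPKM against 3960 to 10200 FPKM. Neutrophil marker sums were higher without overlap in Emo (4380 to 6710 against 1660 to 3950 FPKM) with 0 of 8 called, and those of smooth muscle and pericytes were lower (493 to 713 against 779 to 1010 FPKM). In SAP-24h vs SAP-6h, where Ndufa4l2 and Cox4i2 fell, sums were higher without overlap for neutrophils (4640 to 16500 against 2070 to 4600 FPKM), macrophages and monocytes (24200 to 31600 against 14600 to 22900 FPKM) and club cells (37400 to 47200 against 28100 to 29400 FPKM). They were lower for T cells (11.7 to 15.8 against 42.3 to 53.2 FPKM), B cells (20.5 to 35.6 against 40.4 to 60.2 FPKM), red blood cells (1440 to 2630 against 8140 to 12600 FPKM) and smooth muscle and pericytes (279 to 438 against 485 to 579 FPKM). No marker of these lists was at 0 in the DEX, Emo and SAP groups, and no endothelial marker was at 0 in Sham. The part of these cells in the members' changes was not tested.

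Whether the effect of SAP, DEX or emodin differed between 6 and 24 hours was tested by interaction terms. No member was called for SAP vs Sham (0.0314% of all genes called) or DEX vs SAP (0.169%), with 4 and 7 members at an unadjusted p under 0.05, where 12.6% and 13.6% of all genes were. DESeq2 called no member in either, and 1.22% and 1.85% of all genes. For emodin vs SAP, 3 of 76 members were called (3.57% of all genes), namely Atp5s, Ndufa8 and Uqcrc1. Uqcrc1 was 0.43 higher on the log2 scale in Emo than in SAP at 6 hours (adjusted p = 0.203) and -0.20 at 24 hours (adjusted p = 0.287), an interaction of -0.63 (adjusted p = 0.0402, standard error 0.16). The count was between 0 and 9 with 1 of the 12 rats left out, and was 0 without replicate 1 or 2 of Emo-24h, replicate 1 or 3 of Emo-6h or replicate 2 of SAP-6h.

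Isoforms of complex IV typical of heart and skeletal muscle varied widely from rat to rat in 9 of the 10 groups, and less in Emo-24h, where Cox8b was at 18.9, 15.2 and 18.6 FPKM and Cox6a2 at 35.9, 23.2 and 35.3 FPKM. Cox6a2 ranged from 1.07 to 48.2 FPKM and Cox8b from 1.25 to 24.9 FPKM over the 30 libraries, whereas the common isoforms Cox6a1 (347 to 662 FPKM) and Cox8a (256 to 446 FPKM) varied far less. Tnni3, the heart troponin I gene, was at 0.40 to 6.90 FPKM in 13 libraries and at 18.7 to 54.2 FPKM in 17, a division made at a gap in its values after they were seen. In the 13 libraries Cox6a2 was at 1.07 to 16.98 FPKM and Cox8b at 1.25 to 12.1 FPKM, and in the 17 they were at 23.2 to 48.2 FPKM and 10.1 to 24.9 FPKM. Both kinds of library occurred in 9 of the 10 groups, and all 3 Emo-24h rats were in the higher. The 8 heart muscle markers, none at 0, summed to 7.46 to 326 FPKM per library. Neither Cox6a2 nor Cox8b was called in any comparison, and what the heart muscle markers contribute to their levels was not tested.

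**Figure D5:**
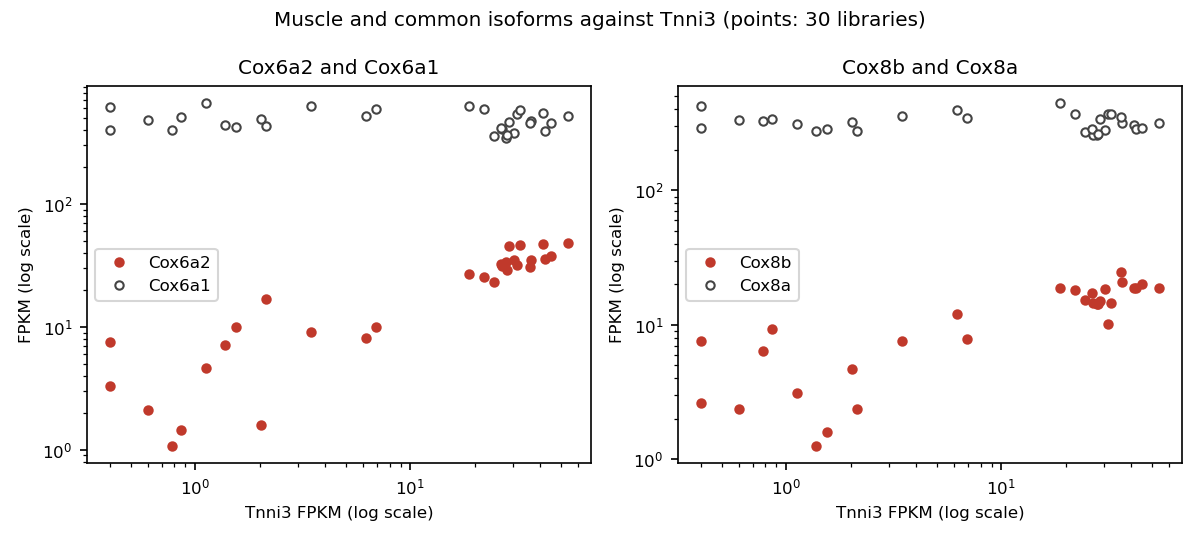
FPKM (log axes) of the muscle isoforms Cox6a2 and Cox8b and the common isoforms Cox6a1 and Cox8a against Tnni3 in 30 libraries. Cox6a2 is at 23.2 FPKM or more in the 17 libraries with Tnni3 at 18.7 FPKM or more and at 16.98 FPKM or less in the 13 others, while Cox6a1 is at 347 to 662 FPKM throughout.

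For some members the count itself is uncertain. Atp5f1 (ENSRNOG00000016000, chromosome 2), the gene for subunit b of the ATP synthase, was at 0 to 0.53 FPKM in 19 libraries and at 3.75 to 10.5 FPKM in 11, with libraries of the first kind in all 10 groups. Libraries of both kinds occurred within 8 of the groups, and the 3 SAP-6h and 3 Emo-6h rats were all of the first. What sets these levels was not tested. Cox6b1 was counted in 2 rows, on chromosome 1 (302 FPKM at the median) and chromosome 2 (312 FPKM), which cannot be taken as independent measurements. Both rows fell from 6 to 24 hours in DEX (-0.38 and -0.486) and in Emo (-0.45 and -0.585), with adjusted p-values from 0.00251 to 0.0224. The DEX call of the chromosome 1 row was lost in the model of the compared groups alone (adjusted p = 0.0619) and without replicate 1 (0.129) or 3 (0.05) of DEX-24h or replicate 2 of DEX-6h (0.11).

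Other genes of the pathway were followed through lists, which were drawn up with earlier results of these data known. Their counts stand against 13.6% of all genes higher and 12.3% lower in DEX from 6 to 24 hours, and 17.3% higher and 16.8% lower in Emo. Of 13 subunits encoded by mitochondrial DNA, 5 were higher and 0 lower in DEX from 6 to 24 hours and 7 were higher and 0 lower in Emo, with median log2 fold changes of 0.30 and 0.43. Mt-nd4, a proton-pumping subunit of complex I, was 0.73 and 1.11 higher (adjusted p = 0.0154 and 0.00056). The 7 nuclear core subunits of complex I went both ways in the same comparisons, from -0.536 to 0.263 in DEX and from -0.618 to 0.366 in Emo. Of 44 assembly factors tested, 6 rose and 3 fell in DEX and 9 rose and 6 fell in Emo. Oxa1l, the inner membrane insertase, fell (-0.73 and -0.72), and Tmem70, which assists the ATP synthase, rose (0.77 and 1.21).

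Of 14 citric acid cycle genes, 2 rose and 6 fell in both time comparisons. The fallen ones included Mdh2, malate dehydrogenase (-0.33 in DEX and -0.55 in Emo), and the risen ones were Sucla2 and Dld. Cyc1, the cytochrome c1 subunit of complex III that the name rule leaves out, fell by 0.38 and by 0.49 on the log2 scale. It stands in a list of electron carriers whose summed level went the other way, higher at 24 hours without overlap. The sums were 233 to 244 against 208 to 228 FPKM in DEX and 233 to 246 against 219 to 226 FPKM in Emo. Of 17 regulators of mitochondrial biogenesis, 4 rose and 2 fell in DEX and 5 rose and 3 fell in Emo. Gabpa, the DNA-binding subunit of the ETS factor GABP, rose (0.87 and 0.91), and Esrra, an orphan nuclear receptor that acts with PGC-1 coactivators, fell (-0.38 and -0.50).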

How the data were processed

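Lungs of 30 rats (10 groups of 3) were sequenced from polyadenylated RNA in paired, directional reads. Per the labels and methods, the authors clipped adaptors, aligned reads with TopHat2 to the genome they call rat_ensembl_v6, discarded reads mapping to several places and deposited raw read counts per gene. The counting program is not given in the sources used here. The deposited FPKM values, rounded to 2 decimals by the authors, served for levels.

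Counts were tested with edgeR 4.0.16 (R 4.3.3): filterByExpr (minimum count 10, minimum total 15), TMM scaling, a quasi-likelihood fit of 10 groups over 30 libraries (20 residual degrees of freedom) and Benjamini-Hochberg adjustment over 15934 genes. The threshold for a call was an adjusted p of 0.05, alone or joined with a 2-fold change. In all, 20 comparisons were made. Alternatives were other scalings, no filter, a replicate block, a gene length offset, the compared groups alone, DESeq2 1.42.0, limma 3.58.1 on log2(FPKM + 1) and log2(FPKM + 0.1), and leaving out each rat. Scripts were tested on simulated counts for Emo-24h vs Emo-6h, with far fewer changed genes than were called in the data. Of genes changed by 0.5 on the log2 scale, 4 of 68 were called. At 1 it was 35 of 75, and at 2 it was 45 of 57. Changes of 0.5 were thus mostly missed there. Promoter matches and figures were made with Python 3.11.15, pandas 2.3.3 and matplotlib 3.10.9.

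Members and lists were chosen with earlier results of these data known. Members named were, in the main 24-hour and time comparisons, the 3 largest increases and the 3 largest decreases among the called, the highest of each complex, core complex I, complex II and the isoform pairs. Ndufv1 levels, Atp5g2, Uqcrc2, Ndufa2 and the members named for Emo-6h were picked after their values were seen. The p-values measure the spread between rats. Depth was 16813949 to 34692306 reads on genes per library. Some genes are not reported here by name.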

Additional observations from a re-analysis of the deposited data

Results flagged for a closer look

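For 3 members the effect of emodin relative to SAP differed between 6 and 24 hours by the interaction term (edgeR's quasi-likelihood test, adjusted over all genes), which is 3.95% of the 76 members, where 3.57% of all genes were called. For Atp5s the effect was -0.66 on the log2 scale at 6 hours (adjusted p = 0.221) and 0.48 at 24 hours (0.126), an interaction of 1.14 (standard error 0.28, adjusted p = 0.0345). For Ndufa8 it was 0.24 (0.379) and -0.36 (0.0568), an interaction of -0.601 (standard error 0.17, adjusted p = 0.0462). For Uqcrc1 it was 0.43 (0.203) and -0.20 (0.287), an interaction of -0.625 (standard error 0.16, adjusted p = 0.0402). None of the effects at a single time passed the threshold. Each interaction call was lost when some single rats were left out, among them replicate 1 or 2 of Emo-24h, replicate 1 or 3 of Emo-6h and replicate 2 of SAP-6h for all 3 members. Atp5s was also lost with no filter (adjusted p = 0.0555) and with the compared groups alone (0.145). Ndufa8 was lost with library size (-0.371, adjusted p = 0.155), upper quartile scaling, no filter, the replicate block, limma and the groups alone. Uqcrc1 was lost with library size (-0.392, adjusted p = 0.104), upper quartile scaling, limma and the groups alone.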

How the results depend on the processing

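Of 55 results for named members, none reversed, and 63 of 550 values under the alternatives and 115 of 348 with a rat left out fell short of the threshold. The number of members called changed by over 1.5 times as follows. It was 1 with DESeq2 in place of 0 for SAP-6h vs Sham-6h, and 1 with the length offset in place of 0 for Emo-6h vs DEX-6h (0 to 1 with a rat left out). For SAP-24h vs Sham-24h, 1 became 3 with RLE or upper quartile scaling, DESeq2 or limma, 5 with library size, 6 with the length offset (5 higher, 1 lower) and 0 with the compared groups alone (0 to 1 with a rat left out). For SAP-24h vs Con-24h, 14 became 25 with library size, 26 with limma and 1 with the groups alone or 2-fold, all lower (2 to 22 in either direction with a rat left out). Over all genes the lower calls went from 1596 to 2323 with library size, 2451 with limma on log2(FPKM + 1) and 97 with the groups alone. Calls over all genes moved with the settings in the comparisons that follow too, and with the groups alone there were 0 over all genes in Sham-24h vs Con-24h and Emo-24h vs SAP-24h. For Sham-24h vs Con-24h, 11 became 7 with library size or no filter, 18 with DESeq2 and 0 with the groups alone or 2-fold (0 to 23). For DEX-24h vs SAP-24h, 2 became 4 with the length offset and 1 with the groups alone or 2-fold (0 to 2). For Emo-24h vs SAP-24h, 2 became 5 with the length offset, 4 with DESeq2, 1 with limma on log2(FPKM + 0.1) and 0 with the groups alone or 2-fold (0 to 3). For Sham-24h vs Sham-6h, 0 became 2 with RLE, 3 with the length offset, 10 with DESeq2 and 4 and 2 with limma (0 to 3). For SAP-24h vs SAP-6h, 2 became 1 with no filter, the replicate block, the groups alone or 2-fold (1 to 2). With 2-fold, 28 became 2 in DEX (11 to 23 with a rat left out) and 35 became 3 in Emo (26 to 33) from 6 to 24 hours. For the emodin interaction, 3 became 1 with library size, upper quartile, no filter, limma or 2-fold, 15 with the length offset, 13 with DESeq2 and 0 with the groups alone (0 to 9). The causes were not tested. Replicate numbers did not pair the rats (median correlation -0.0065 between same-numbered libraries, 0.0096 between others), and under the replicate block 29 members were called in DEX and 35 in Emo. The members' median was below 0 from 6 to 24 hours in DEX and Emo under every scaling, but its sign turned under at least 1 alternative for emodin against DEX at 6 hours, at 24 hours for DEX against SAP, emodin against SAP, emodin against DEX and SAP against Sham, for SAP from 6 to 24 hours and for the emodin interaction. With 3 rats per group, a difference that missed the threshold is not shown to be absent.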
